A study of Mus musculus with 12 samples.

Results

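The genes described here are 9 markers of lymphocytes: the T cell genes Cd3d, Cd3e, Cd3g, Cd4 and Cd8a, the B cell genes Cd79a, Cd79b and Ms4a1, and Cd69, an early activation antigen. They were chosen by name, and every probe whose accession maps to one of them was taken, which gave 14 probes among 42386 probes of 23579 genes with a symbol. Expression was measured on single-colour Agilent arrays in CX3CR1-sorted brain microglia of male mice aged 8 weeks. After transient middle cerebral artery occlusion (tMCAO), a stroke model in which a brain artery is blocked and then reopened, cells were taken from mice overexpressing ZEB1 (TG after), from ZEB1 knock-down mice (KD after) and from wild type mice (WT after). Before tMCAO they were taken from the same 3 genotypes (TG before, KD before, WT before). Each of the 6 groups held 2 arrays, 12 in all. The construct, promoter and cell type behind the overexpression or the knock-down, the time after tMCAO and any pooling of animals are not given in the sources used here. The labels call the samples of a group replicates without saying that they are separate animals, so p-values measure only the spread between these samples.

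CD3 delta, epsilon and gamma, encoded by Cd3d, Cd3e and Cd3g, are the signalling chains that carry the T cell receptor to the surface. Cd4 and Cd8a encode the coreceptors that bind class II and class I MHC molecules, and mouse Cd4 is also transcribed in some macrophages and dendritic cells. Cd79a and Cd79b encode the signalling chains of the B cell receptor, and Ms4a1 encodes the B cell surface protein CD20. Cd69 encodes a C-type lectin that appears within hours on activated T, B and natural killer cells and on activated myeloid cells, where it binds the sphingosine 1-phosphate receptor S1PR1 and holds cells in tissue. In RefSeq (build GRCm38.p6), Cd3g, Cd3d and Cd3e lie next to each other at chr9:44969572-45009663, Cd69 at chr6:129267324-129275375, Cd4 at chr6:124864693-124888247, Cd8a at chr6:71373427-71379171, Cd79a at chr7:24897497-24901858, Cd79b at chr11:106311341-106314562 and Ms4a1 at chr19:11249679-11266149. Resting microglia are not known for T or B cell receptor genes. ZEB1 is a zinc finger repressor that binds E-boxes with the core CACCTG, read as CAGGTG on the opposite strand.

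The promoters of the 3 CD3 genes are shown because these genes lie side by side on chromosome 9 and all carry that E-box. Sequences are from RefSeq (build GRCm38.p6), cover 250 bases before to 50 after the annotated start, and run 5′ to 3′ along the strand of the gene, with each CACCTG in capitals.

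Cd3d, chr9:44981536-44981835, plus strand: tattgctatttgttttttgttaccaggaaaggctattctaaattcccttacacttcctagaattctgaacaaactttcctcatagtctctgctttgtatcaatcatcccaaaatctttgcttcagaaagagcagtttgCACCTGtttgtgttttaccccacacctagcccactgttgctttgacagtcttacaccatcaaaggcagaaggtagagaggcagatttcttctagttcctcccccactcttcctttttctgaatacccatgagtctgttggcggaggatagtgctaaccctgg

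Cd3e, chr9:45009562-45009861, minus strand: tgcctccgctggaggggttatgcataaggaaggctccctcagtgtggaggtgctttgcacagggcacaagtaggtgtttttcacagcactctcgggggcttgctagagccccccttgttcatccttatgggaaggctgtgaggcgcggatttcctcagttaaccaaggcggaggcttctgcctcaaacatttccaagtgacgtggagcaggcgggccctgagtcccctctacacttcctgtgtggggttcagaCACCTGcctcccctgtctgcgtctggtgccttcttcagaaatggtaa

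Cd3g, chr9:44980382-44980681, minus strand: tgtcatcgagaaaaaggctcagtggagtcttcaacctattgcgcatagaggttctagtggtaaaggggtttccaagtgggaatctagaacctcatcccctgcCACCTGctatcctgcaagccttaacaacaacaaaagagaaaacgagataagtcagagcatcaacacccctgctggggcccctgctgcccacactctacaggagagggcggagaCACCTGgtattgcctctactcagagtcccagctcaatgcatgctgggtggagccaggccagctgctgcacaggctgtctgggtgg

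The match lay 112 bases before the start in Cd3d, 4 bases after it in Cd3e, and 148 and 35 bases before it in Cd3g. The table held promoters for 5 of the 9 genes (Cd3d, Cd3e, Cd3g, Cd79a and Cd8a), and 4 of these 5, Cd8a being the exception, contained CACCTG or CAGGTG, as did 20.2% of 32851 mouse promoters of the same length. None of the 5 contained the AP-1 motif TGANTCA (7.81% of all promoters), the NF-kB motif (0.411%) or the interferon element (3.44%), each searched on both strands. These matches describe the letters only, and binding was not measured.

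The arrays came on 2 slides with different probe sets, and only groups on the same slide were tested. TG after and WT after shared a 4-array slide, and KD after, TG before, KD before and WT before shared an 8-array slide. Levels are log2 intensities minus the 75th percentile of the array, so that 0 is a bright gene, and they compare arrays for 1 probe, not probes with each other. Each array held 59305 spots other than controls. That percentile was at an intensity of 1078 to 1515 for TG after and WT after and of 2566 to 3702 for the other groups, 60.4% to 73.9% of spots were well above background, and 1.03% to 23.7% were marked as non-uniform or outlying and left out of the main test. Replicate arrays correlated at 0.975 to 0.988 across probes. No difference of Zeb1 between genotypes passed the test: with marked spots kept, the log2 difference was -0.02 for TG after minus WT after, 0.26 for TG before minus WT before and 0.13 for KD before minus WT before (limma adjusted p = 0.974, 0.771 and 0.984). The position of its probes relative to any introduced or targeted sequence is not given, and groups are named as labelled. Of 12 microglia and macrophage markers, at least 11 were well above background on each array of the 8-array slide, and all 11 with a probe were on the 4-array slide. Markers of neurons and astrocytes were also well above background, all 8 of each list on every array of both slides.

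**Figure D1:**
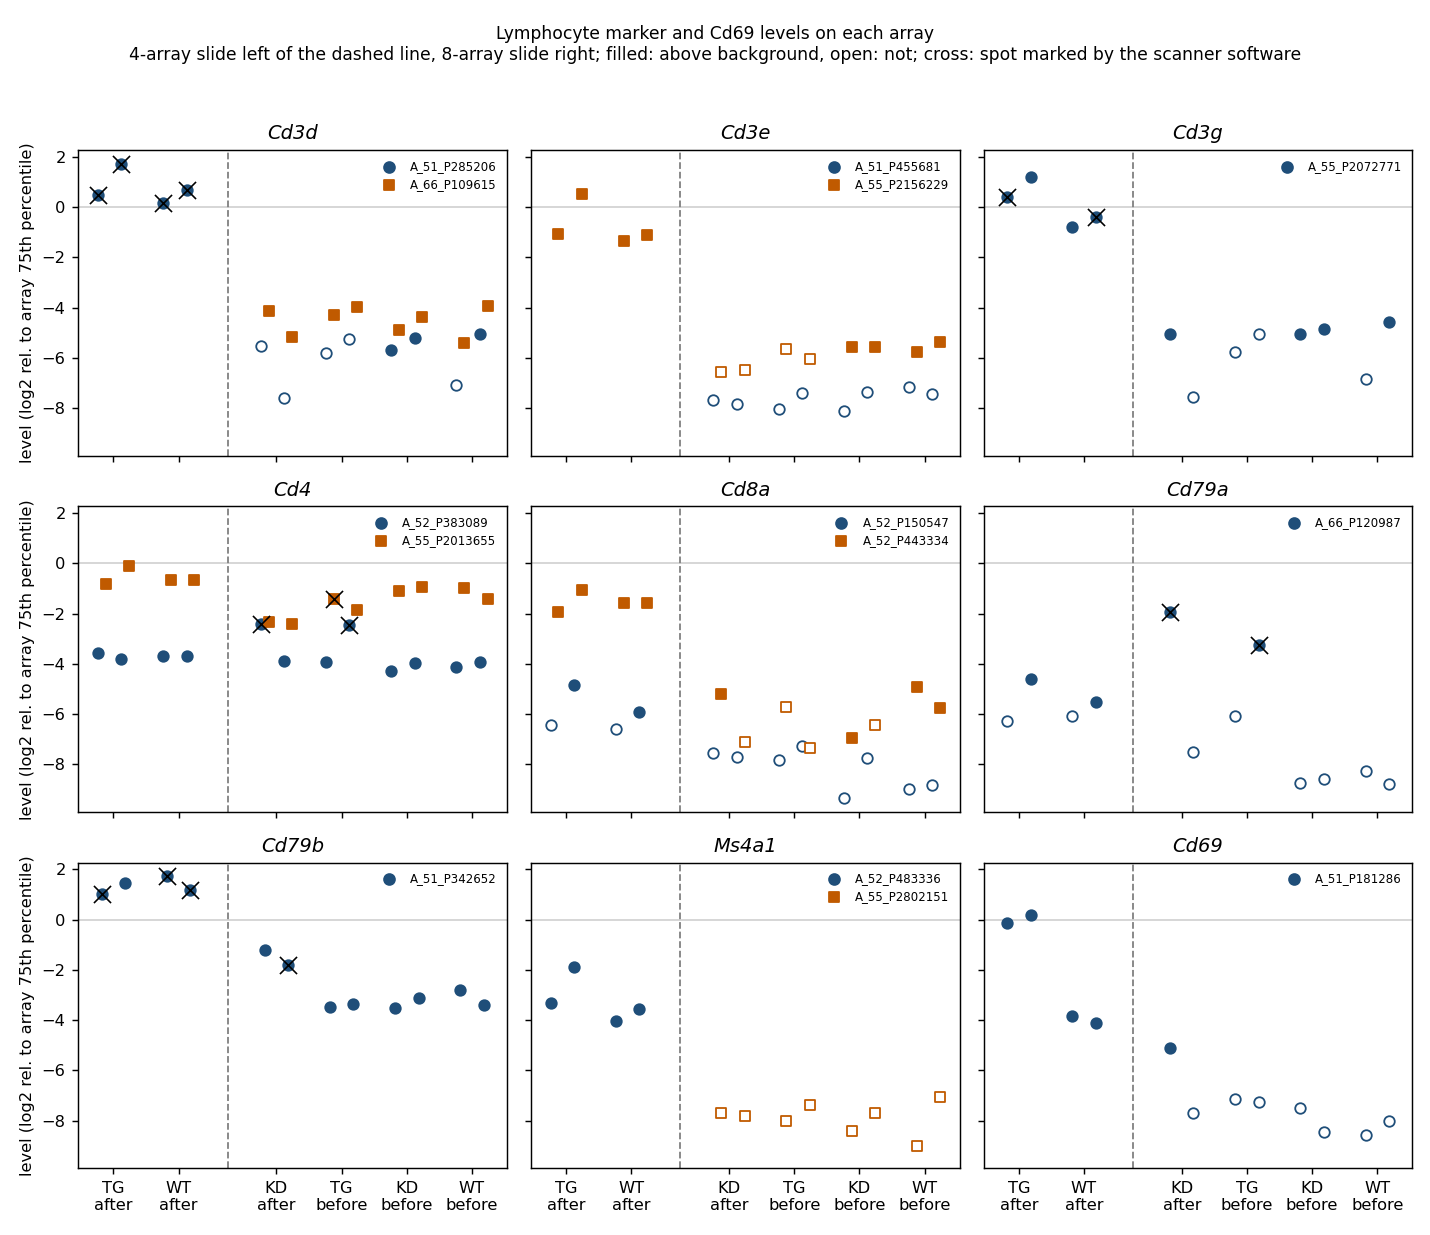
Level of each probe of the 9 genes on each of the 12 arrays (vertical axis, log2 units from the 75th percentile of that array), by group, with the 4-array slide left of the dashed line and the 8-array slide right of it. Cd69 lay at -0.12 and 0.18 in TG after and at -3.83 and -4.10 in WT after, and was not well above background on 7 of the 8 arrays of the other slide.

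More of the lymphocyte probe values were well above background on the 4-array slide than on the other, but not all probes were shared. Ms4a1 had a different probe on each slide, and 1 probe each of Cd3d and Cd3e was on the 8-array slide only. That Cd3e probe was above background on none of its 8 arrays. Of all spots, 68.5% to 73.9% per array were above background on the 4-array slide and 60.4% to 73.5% on the 8-array slide. On the 4-array slide 40 of 44 probe values were well above background, and 8 of the 9 genes passed the filter, which asks that both arrays of some group read a probe above background. Cd79a failed it, with 1 of 2 arrays above background in TG after and 1 of 2 in WT after. On the 8-array slide 50 of 104 probe values were above background, and 6 of the 9 genes passed, while Cd69, Cd79a and Ms4a1 did not. Cd79b, both Cd4 probes and the brighter Cd3d probe were above background on all 8 arrays of that slide. In these bulk samples, fewer cells of a type and less RNA per cell cannot be told apart.

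Cd69 was the member that differed most between TG after and WT after. It lay at -0.12 and 0.18 in the TG arrays, intensities of 1156 and 1714, and at -3.83 and -4.10 in the WT arrays, intensities of 76.0 and 79.6. All 4 spots were unmarked and well above background, and the groups lay far apart. The difference was 3.99 ± 0.26 (SE, n = 2 per group, 95% interval 3.38 to 4.60), a 15.9-fold higher level in TG after, with a limma adjusted p of 0.00375. By size it ranked 26th of 22488 genes and accessions tested and 8th of the 12583 with a symbol, and by p it ranked 7th. Under normexp background correction the difference was smaller, 2.67 (adjusted p = 1.43e-09). Without any one array the difference ranged from 3.84 to 4.14 and stayed past the threshold. Without the filter on dim probes, 31727 genes were tested, none passed (4285 at an unadjusted p under 0.05), and the adjusted p of Cd69 was 0.0924. TG after lay in row 2 and WT after in row 1 of the slide, so slide row and genotype cannot be told apart.

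The T cell receptor genes ran the same way without passing the test. Cd3g, with marked spots kept, lay at 0.42 and 1.19 in TG after and at -0.80 and -0.39 in WT after. One spot of each group was marked, and the groups did not overlap. Without the marked spots 1 array per group remained and the difference was 1.99, a value with no replicate spread of its own, and with them it was 1.40 (limma adjusted p = 0.0699). Cd3e lay at -1.05 and 0.53 in TG after and at -1.34 and -1.09 in WT after. Both TG arrays were above both WT arrays, but replicate 1 only narrowly, and the difference was 0.95 ± 0.49 (adjusted p = 0.317). All 4 spots of Cd3d were marked. They lay at 0.48 and 1.70 in TG after and at 0.15 and 0.70 in WT after, overlapping, with a difference of 0.66 with marked spots kept (adjusted p = 0.392).

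The coreceptors showed smaller values. The brighter Cd4 probe lay at -0.82 and -0.08 in TG after and at -0.67 and -0.67 in WT after, a difference of 0.22 ± 0.30 (limma adjusted p = 0.726), and the WT arrays fell between the TG arrays. The second Cd4 probe, printed in 10 spots per array, gave a difference of 0.02 (adjusted p = 0.977). Cd8a, also measured in 10 spots, lay at -1.92 and -1.04 in TG after and at -1.68 and -1.56 in WT after. Its groups overlapped, with a difference of 0.14 ± 0.33 (adjusted p = 0.846).

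Among the B cell genes, Ms4a1 lay at -3.31 and -1.89 in TG after and at -4.04 and -3.57 in WT after. The groups did not overlap, and the difference was 1.20 ± 0.47 (limma adjusted p = 0.205). Cd79b was bright in both groups, at 1.03 and 1.47 in TG after and at 1.72 and 1.16 in WT after. Both WT spots were marked, so it had no value in the main test, and with marked spots kept the difference was -0.19 (adjusted p = 0.738). Cd79a lay at -6.28 and -4.61 in TG after and at -6.07 and -5.52 in WT after, near background and overlapping.

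**Figure D2:**
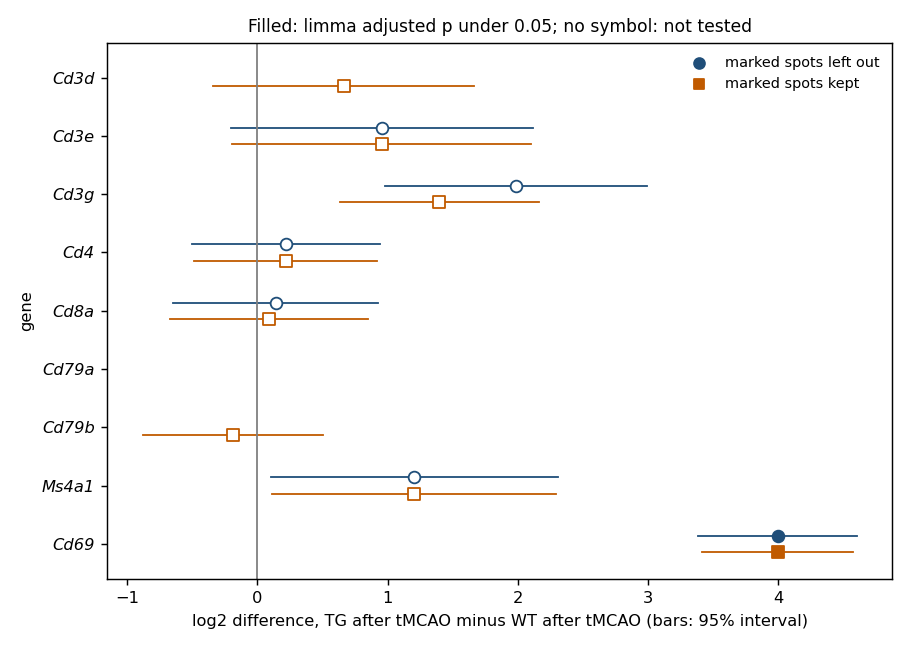
Log2 difference of TG after minus WT after for each gene (points) with its 95% interval (bars), with marked spots left out and kept. Cd69 at 3.99 is the only one of 6 tested members past an adjusted p of 0.05, the bar of Cd3g with marked spots left out rests on the spread of other genes, and Cd79a was not tested.

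In all, 1 of the 6 tested members was called, against 2.29% of all 22488 genes and accessions (1.57% higher, 0.725% lower). Of the 22488, 2208 had 1 array per group, so that their p rests on the spread of other genes alone, and 4 of these were called. Cd3g is one of the 2208 and was not called. The 6 differences were all above 0, with a median of 1.08, while the median over everything tested was -0.10 and 42.2% lay above 0. With all spots kept, 4 of 8 members (Cd3e, Cd3g, Ms4a1 and Cd69) had both TG after arrays above both WT after arrays and none had them below, against 21.6% and 33.8% of all genes. With marked spots kept 1 of 8 was called, Cd69, against 3.2% of 27935. The second TG array carried much of this: at the brightest probe it was the highest of the 4 arrays for 8 of the 9 genes, all but Cd79b. Without TG after replicate 2 the differences fell to 0.16 for Cd3e and 0.49 for Ms4a1 and turned to -0.15 for Cd4 and -0.30 for Cd8a, none of these 4 past the threshold. Without TG after replicate 1, Cd3e (1.75, adjusted p = 0.0194) and Ms4a1 (1.92, adjusted p = 0.0184) passed beside Cd69, by limma, where the lone TG array is assumed to vary like the WT arrays.

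**Figure D3:**
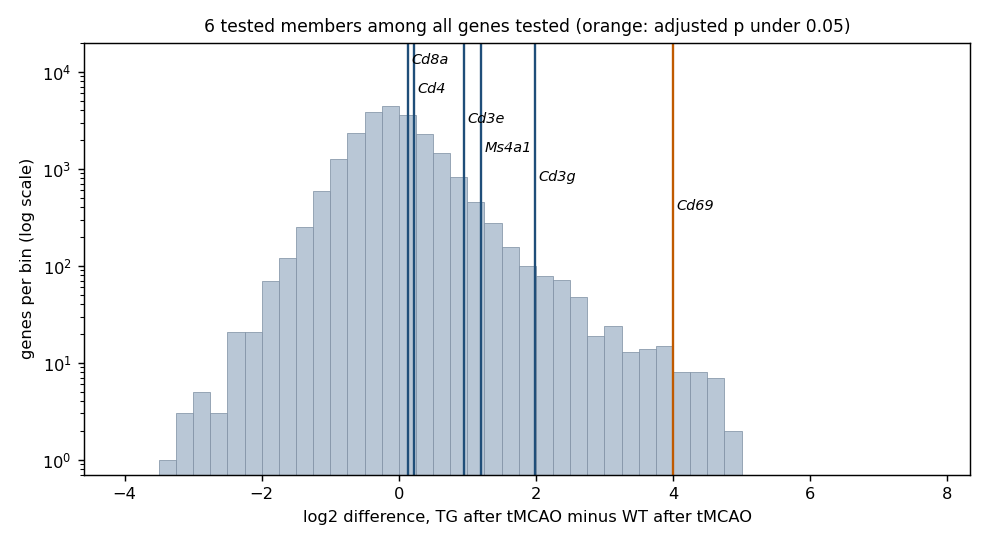
Number of genes and accessions (vertical axis, log scale) by log2 difference, TG after minus WT after, with lines at the 6 tested members. Cd69 lies in the far right tail at 3.99, while Cd8a at 0.14 and Cd4 at 0.22 lie in the bulk of the distribution.

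The wider pathways of these genes were read from lists. In TG after against WT after, 1.57% of all genes and accessions were called higher and 0.725% lower. Of 28 genes of T cell receptor and T cell signalling, 22 were tested in TG after against WT after and none passed limma's test, although 20 were positive and the median was 0.92. Ctla4, an inhibitory receptor of T cells, had the highest value at 2.43 (adjusted p = 0.0847), followed by the costimulatory receptor Icos at 1.74 (adjusted p = 0.108). The lowest were Bcl11b, a T lineage transcription factor, at -0.47 (adjusted p = 0.321) and Thy1, a surface protein of T cells and neurons, at -0.31 (adjusted p = 0.626). Of 24 B cell genes, 19 were tested, 1 rose and the median was 0.37. Pou2af1, a coactivator of B cell transcription, was higher in TG after by 1.59 ± 0.30 (adjusted p = 0.0492), a call lost under several alternatives (adjusted p up to 0.233). Jchain, which joins IgM and IgA units, was at 2.10 on 1 array per group, a value with no replicate spread, the B cell and myeloid receptor Cd40 at 1.63 (adjusted p = 0.107), Fcer2a at -0.57 (adjusted p = 0.348) and Tnfrsf13b at -0.65 (adjusted p = 0.203).

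Natural killer and cytotoxic genes gave no call among 16 tested of 20 (median 0.56, limma). The highest were Gzmb, a granzyme, at 2.27 (adjusted p = 0.102) and Tbx21, the transcription factor T-bet, at 1.70 on 1 TG array (adjusted p = 0.0563). The lowest were Il2rb at -0.34 on 1 array per group, which turned positive with marked spots kept, and Klrd1 at -0.15 (adjusted p = 0.882). Of the sphingosine 1-phosphate genes, the receptors, enzymes and transporter of the lipid that draws lymphocytes out of tissue, none of 7 tested of 11 passed (median 0.18). S1pr4 at 1.43 (adjusted p = 0.107) and S1pr2 at 1.41 (adjusted p = 0.111) were highest. S1pr4 was not above background on WT after replicate 1, so it passed the filter only through TG after. S1pr5 at -0.51 (adjusted p = 0.277) and Spns2 at -0.14 on 1 array per group were lowest.

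Calls were found among other activation antigens and among the lectins, where 1.57% of all genes and accessions were called higher. Of 16 leukocyte activation antigens, 11 were tested, 3 rose in TG after, and the median was 1.12. They were Cd274, the ligand PD-L1, by 2.44 ± 0.33 on 1 TG array, where the gene's spread comes from the WT arrays alone (limma adjusted p = 0.0290), the receptor Slamf1 by 2.08 ± 0.38 (adjusted p = 0.0481) and Cd38, an NAD-consuming ectoenzyme, by 1.49 ± 0.24 (adjusted p = 0.0345). Tnfrsf9 at 0.26 (adjusted p = 0.580) and Tnfrsf4 at -0.34 (adjusted p = 0.594) did not pass. Of 18 C-type lectins of the natural killer gene complex, the family of Cd69, 9 were tested and 2 rose: Olr1, a scavenger receptor for oxidised lipoprotein, by 2.53 ± 0.29 (adjusted p = 0.0164) and Clec2i by 2.28 ± 0.35, likewise on 1 TG array (adjusted p = 0.0375). Clec2e was at -0.27 (adjusted p = 0.638) and Clec2l at -1.27 (adjusted p = 0.111). Under normexp correction the differences shrank to 0.50 for Olr1 and 0.21 for Slamf1 (adjusted p = 0.521 and 0.811), and under quantile normalization the calls of Slamf1 and Clec2i were lost (adjusted p = 0.0755 and 0.0561). Olr1 and Slamf1 were not above background on WT after replicate 1, so they passed the filter only through TG after, where they were higher. Their WT after means were -5.95 and -5.85, near background. Without the filter on dim probes none of the 5 was called. When each array was left out in turn, each of the 5 lost its call for at least 1 array.

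Other gene lists were measured beside these values, where 1.57% of all genes and accessions were called higher and 0.725% lower. Of 15 interferon response genes, 10 were tested and 7 rose, with a median of 2.50, and their mean level over 13 genes with a probe was 1.54 and 1.77 in TG after against -0.87 and -0.63 in WT after. Immediate early and dissociation genes had no call among 12 tested (limma), all 12 positive, with a median of 0.71. The 8 T cell markers averaged -1.05 and 0.18 in TG after and -1.39 and -1.08 in WT after, and the 6 natural killer markers -2.0 and -1.08 in TG after and -1.90 and -1.71 in WT after. Cd247 was the T cell marker not above background on both WT arrays and on TG after replicate 1. Monocyte and border macrophage markers averaged 0.78 and 0.66 in TG after and 0.43 and 0.17 in WT after, with 7 of 7 tested positive and none called. Neutrophil markers averaged 2.54 and 2.79 in TG after and 2.29 and 2.02 in WT after, with 4 of 4 tested positive and 1, the elastase gene Elane, called. Microglia markers averaged 2.59 and 2.63 in TG after and 2.54 and 2.52 in WT after, with none of 8 tested called. Of 8 endothelial and mural markers tested none was called, all were negative and the median was -1.06. B cell markers averaged -2.65 and -1.62 in TG after and -2.52 and -2.41 in WT after. Erythroid markers averaged -0.74 and 0.24 in TG after and -0.29 and -0.45 in WT after. No B cell, erythroid, dendritic, neuron, oligodendrocyte or astrocyte marker tested was called, and all 4 neuron markers tested were negative. The part of these cell types and of the interferon genes in the Cd69 difference was not tested.

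**Figure D4:**
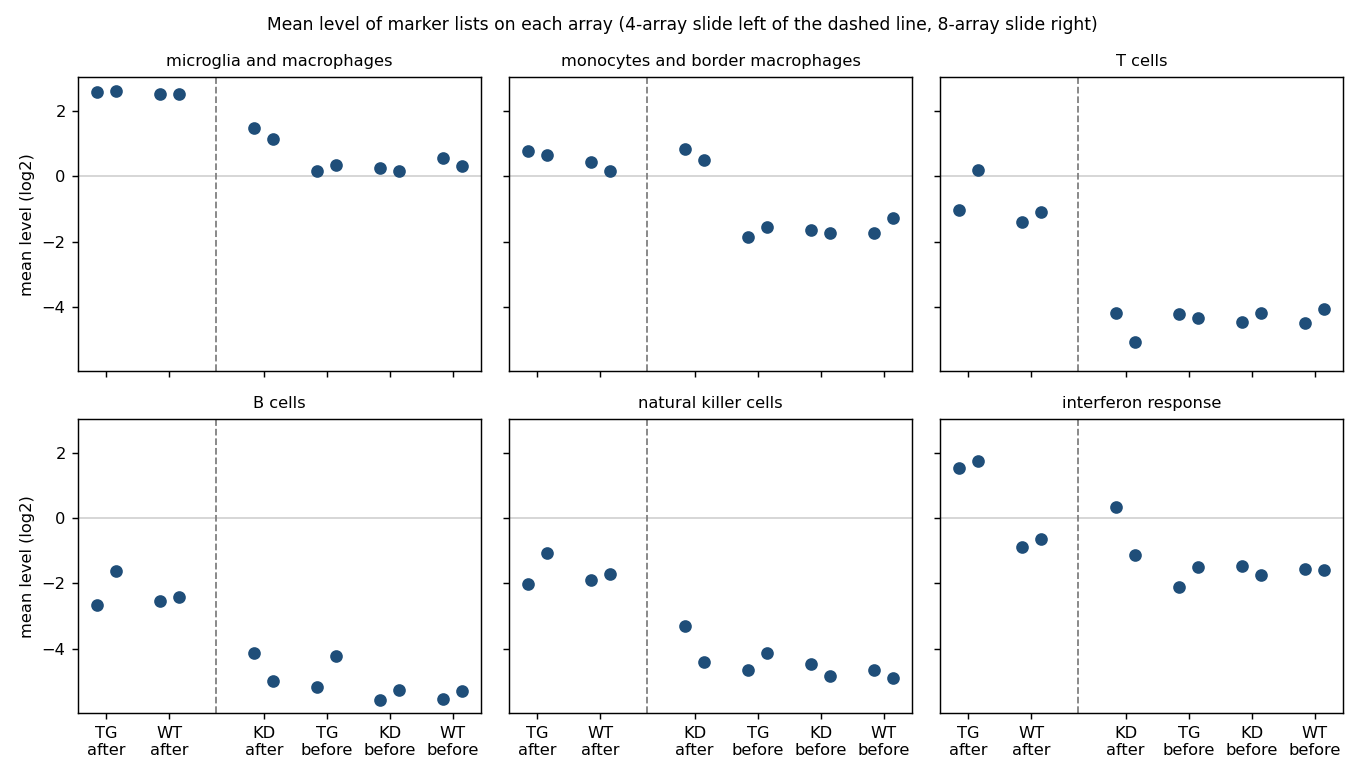
Mean level of 6 gene lists on each array (vertical axis, log2 units from the 75th percentile of that array), with the 4-array slide left of the dashed line. On the 4-array slide the second TG after array is highest for every list shown, microglia and interferon genes included, except monocyte markers. On the 8-array slide monocyte markers are higher in KD after (0.84 and 0.51) than in KD before (-1.65 and -1.75) while T cell markers are not.

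KD after against KD before is the comparison across tMCAO that a single slide allows. Here 3 of 6 tested members were called, 1 higher and 2 lower, against 18.2% of 24647 genes and accessions (11.1% higher, 7.04% lower). The share of higher calls among all genes was 61.3%, and 44.7% under quantile normalization or 78.5% under normexp correction, with overall medians of 0.05, -0.10 and 0.21. KD after lay in row 1, columns 1 and 2, and KD before in row 2, columns 3 and 4. Neither side nor row of the slide can therefore be told apart from tMCAO. Of all spots, 20.8% and 23.5% were marked in KD after against 1.87% and 1.03% in KD before. TG before, also in columns 1 and 2 but without tMCAO, had 23.7% and 18.2% marked. WT before, in columns 3 and 4, had 3.28% and 1.26% marked. With all spots kept, both KD after arrays lay above both KD before arrays for 1 of 6 members (33.6% of all genes) and below them for 2 of 6 (28.4%).

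Cd79b, the B cell receptor chain, lay at -1.23 and -1.81 in KD after, the second value from a marked spot, and at -3.53 and -3.12 in KD before. Both KD after arrays were above all 6 others of the slide. The difference was 2.10 ± 0.32 on 1 KD after array (limma adjusted p = 0.0173) and 1.81 with the marked spot kept (adjusted p = 0.0141). The other B cell genes gave no test. Ms4a1 was not above background on any array of the slide, at -7.69 and -7.81 in KD after and at -8.41 and -7.69 in KD before. Cd79a was above background in KD after only on replicate 1, from a marked spot at -1.93, with -7.49 on replicate 2 and -8.76 and -8.56 in KD before.

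The brighter Cd4 probe lay at -2.32 and -2.42 in KD after and at -1.08 and -0.95 in KD before. The groups did not overlap, and the level was lower in KD after by a log2 difference of -1.35 ± 0.19 (limma adjusted p = 0.0135). The second Cd4 probe went the other way, at 0.25 ± 0.24 with 1 KD after array (adjusted p = 0.504), so the 2 probes disagree in sign. Cd3e lay at -6.54 and -6.50 in KD after, not well above background, and at -5.55 and -5.57 in KD before, above it. The difference of -0.96 ± 0.20 was called (adjusted p = 0.0272), but no fold above 1 could be bounded, and it was -0.004 under normexp correction. Cd3d at -0.04 ± 0.55 (adjusted p = 0.966), Cd3g at -1.34 ± 0.99 (adjusted p = 0.367) and Cd8a at 0.53 ± 0.77 (adjusted p = 0.650) were not called, and KD after replicate 1 lay above replicate 2 for all 3.

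Without KD before replicate 1 or replicate 2 none of the 3 calls held (limma adjusted p 0.0613 to 0.110), and without KD after replicate 1 only Cd4 did, with a difference of -1.40 (adjusted p = 0.0422), Cd79b having no value left. Without KD after replicate 2, Cd4 (adjusted p = 0.0396) and Cd79b (adjusted p = 0.0193) held. The number of genes called over the slide fell to 1059 and 827 without one or the other KD before array and to 2288 without KD after replicate 1.

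**Figure D5:**
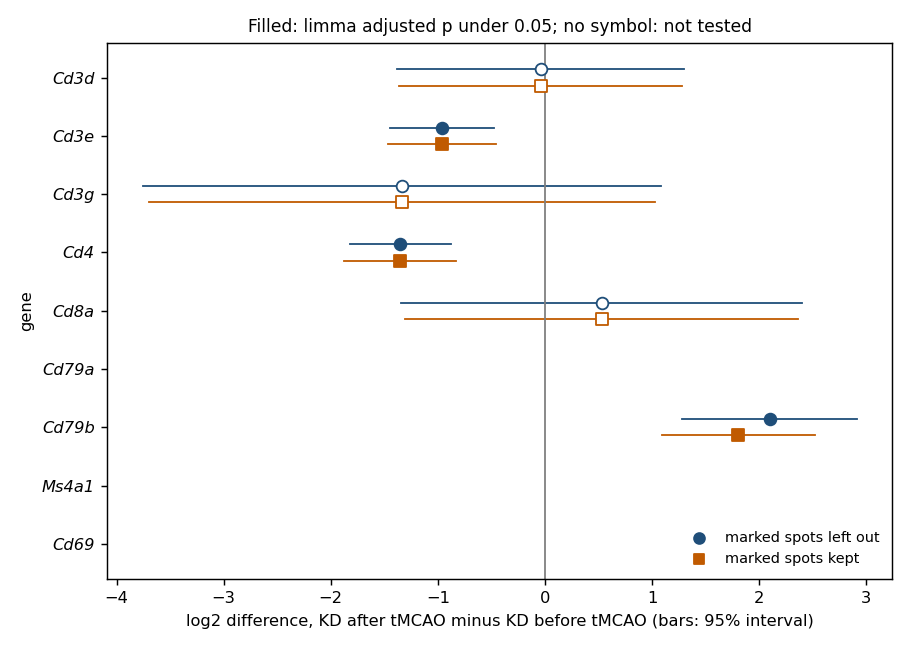
Log2 difference of KD after minus KD before for each gene (points) with its 95% interval (bars), with marked spots left out and kept. Filled symbols mark Cd79b at 2.10, the brighter Cd4 probe at -1.35 (the second probe is at 0.25) and Cd3e at -0.96, whose KD after signal is not well above background, while Cd79a, Ms4a1 and Cd69 did not pass the background filter.

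Cd69 was above background on this slide only on KD after replicate 1, at -5.10, an intensity of 108. It lay at -7.69 on KD after replicate 2, at -7.16 and -7.28 in TG before, at -7.48 and -8.46 in KD before and at -8.58 and -8.0 in WT before. The groups before tMCAO have no order, since all their values were below background, and Cd69 was not tested here.

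In KD after against KD before, the T cell list held calls in both directions and the other 5 lists higher calls alone, where 11.1% of all genes were called higher and 7.04% lower. Of 21 tested T cell genes, 2 rose and 4 fell, with a median of -0.12. Cd247, the CD3 zeta chain, was higher in KD after by 0.88 ± 0.15 (limma adjusted p = 0.0169) and the transcription factor Tcf7 by 0.72 ± 0.17 on 1 KD after array (adjusted p = 0.0478). Bcl11b was at -1.17 ± 0.12 (adjusted p = 0.00496), the receptor Cd6 at -0.93 ± 0.24 (adjusted p = 0.0461), the adaptor Skap1 at -0.80 ± 0.18 (adjusted p = 0.0349) and Thy1 at -0.55 ± 0.13 (adjusted p = 0.0416). Under quantile normalization the calls of Cd247 and Tcf7 were lost (adjusted p = 0.0944 and 0.0951), and with marked spots kept Tcf7 was at 0.52 (adjusted p = 0.0949). When each array was left out in turn, every call of this list except that of Bcl11b was lost for at least 1 array. The call of Thy1 was lost each time, with differences of -0.60 to -0.51.

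Of 17 tested B cell genes, 11 were positive, with a median of 0.40 and a range of -6.22 (not called) to 1.58. In KD after 4 were called higher and none lower. They were the kinases Syk, by 1.58 ± 0.36 (limma adjusted p = 0.0345), and Btk, by 1.36 ± 0.24 on 1 KD after array (adjusted p = 0.0244), the adaptor Blnk, by 1.28 ± 0.20 on 1 KD after array (adjusted p = 0.0174), and the receptor Tnfrsf13b, by 1.25 ± 0.17 (adjusted p = 0.00944). Syk and Btk also act in macrophages. Of 11 tested natural killer and cytotoxic genes, the chemokine Ccl5 rose, by 1.76 ± 0.42 (adjusted p = 0.0371), a share near the 11.1% of all genes. The calls of Syk, Btk, Blnk, Tnfrsf13b and Ccl5 were each lost for at least 1 array left out.

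Of 7 tested sphingosine 1-phosphate genes, 4 rose in KD after: the receptors S1pr3, by 1.70 ± 0.15 (limma adjusted p = 0.00416), and S1pr2, by 1.45 ± 0.29 (adjusted p = 0.0240), the kinase Sphk1, by 1.12 ± 0.22 (adjusted p = 0.0228), and the lyase Sgpl1, by 0.94 ± 0.14 (adjusted p = 0.0125). All 10 tested activation antigens were positive and 3 rose, the adhesion molecules Cd44, by 2.63 ± 0.27 (adjusted p = 0.00529), and Icam1, by 2.08 ± 0.27 on 1 KD before array (adjusted p = 0.0124), and the receptor Tnfrsf4, by 1.31 ± 0.20 (adjusted p = 0.0131). Of 7 tested lectins Clec7a, the beta-glucan receptor of myeloid cells, rose by 2.64 ± 0.18 on 1 KD after array (adjusted p = 0.00400). This share of 1 in 7 is near the 11.1% of all genes called higher. The calls of S1pr2, Sphk1, Sgpl1 and Tnfrsf4 were each lost for at least 1 array left out. Beside these, 5 of 7 tested microglia and macrophage markers and 6 of 8 tested monocyte and border macrophage markers rose, the second list with a median of 2.57 and a mean level of 0.84 and 0.51 in KD after against -1.65 and -1.75 in KD before. Of 5 tested erythroid markers 3 fell (Alas2, Slc4a1 and Epor), of 7 endothelial and mural markers 3 rose (Pecam1, Cldn5 and Pdgfrb), and of 2 neuron markers Slc17a7 fell. Erythroid markers averaged -3.18 and -3.81 in KD after and -3.06 and -2.41 in KD before, endothelial and mural markers -0.22 and -0.42 in KD after and -1.02 and -0.91 in KD before, and neuron markers 2.14 and 2.22 in KD after and 2.55 and 2.61 in KD before. Among the remaining lists Cxcr2 (neutrophils), Mog (oligodendrocytes), Gfap (astrocytes) and Oas2 (interferon response) rose. Beside these marker counts, 11.1% of all genes were called higher and 7.04% lower. The 8 T cell markers averaged -4.21 and -5.09 in KD after and -4.47 and -4.20 in KD before. The part of these cell types in the values above was not tested.

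Before tMCAO no genotype differed in any of the 6 tested members by limma. No gene was called (0%) among 25147 in TG before against WT before, 30295 in KD before against WT before or 25152 in TG before against KD before, while 2927, 2654 and 3717 genes had an unadjusted p under 0.05. In TG before against WT before the member differences had a median of -0.29 and ran from -1.20 for Cd8a (at least 1.05-fold lower, TG not well above background, adjusted p = 0.594) to 0.55 for Cd3d (adjusted p = 0.731). In KD before against WT before the median was 0.03, from -1.36 for Cd8a (adjusted p = 0.735) to 0.75 for Cd3g (adjusted p = 0.917). In TG before against KD before the median was -0.19, from -0.84 for Cd4 on 1 TG array (adjusted p = 0.254) to 0.50 for Cd3d (adjusted p = 0.677). Cd4 gave the lowest unadjusted p, 0.0135 in TG before against KD before, with -1.42 (marked) and -1.85 in TG before, -1.08 and -0.95 in KD before, and -1.0 and -1.41 in WT before. With all spots kept, the groups did not overlap for Cd4, lower in TG before than in WT before (24.5% of all genes lower, 22.8% higher), for Cd8a, lower in KD before than in WT before (30% lower, 13.9% higher), and for Cd3d, higher, and Cd3e and Cd4, lower, in TG before than in KD before (31.8% higher, 19.4% lower). Each gene is read here at its brighter probe. At the second Cd4 probe TG before lay at -3.93 and -2.45 (marked), above KD before at -4.30 and -3.98. The 2 Cd4 probes thus went opposite ways in TG before against KD before. The second Cd3d probe overlapped, at -5.79 and -5.23 in TG before and at -5.70 and -5.21 in KD before. Slide side cannot be told apart from TG before, nor slide row from either genotype against WT before. Over the 3 comparisons the 6 pathway lists had no call.

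The same probe can be read on both slides, without a test, because slide and group cannot be told apart. At probes above background on both arrays of each group, WT after minus WT before was 4.55 for Cd79b, 4.35 for Cd3e and 3.76 for Cd8a, beside a median of 0.66 over 30629 shared probes. For Cd4 it was 0.53 and 0.33 at its 2 probes. TG after minus TG before was 4.66 for Cd79b and 1.18 and -0.48 for Cd4, beside a median of 0.25. All these differences keep marked spots. For Cd79b both WT after spots and 1 TG after spot were marked. At each Cd4 probe 1 TG before spot was marked, at -1.42 and at -2.45. The unmarked TG before spot of the second Cd4 probe lay at -3.93, below both TG after arrays (-3.55 and -3.79). The sign of -0.48 therefore rests on the marked spot. In TG before neither array was above background for Cd69, Cd3e, Cd8a or the shared probes of Cd3d and Cd3g, so no difference is given for them. KD after, also after tMCAO but on the 8-array slide, differed by gene: Cd3d lay at -5.51 and -7.61 in KD after at the probe that read 0.48 and 1.70 in TG after and 0.15 and 0.70 in WT after, neither KD after array above background. The second Cd4 probe lay at -2.43 (marked) and -3.89 in KD after, against -3.70 and -3.68 in WT after.

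The genes whose levels ran most like Cd69 over the 8-array slide were Spata5l1 (Pearson r 0.987 over 8 arrays), Rest (0.958), Star (0.950), 4930599N23Rik (0.946) and Rttn (0.945), out of 7504 genes with a symbol and a value above background on all 8. The r values rest in part on KD after replicate 1, where Cd69 was highest. Without it r was 0.946 for Spata5l1, 0.871 for Rest, 0.785 for Star, 0.800 for 4930599N23Rik and 0.730 for Rttn. Cd69 was not above background on the other 7 arrays, and all arrays share the slide, so these are descriptions of signals near background.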

How the data were processed

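Arrays were single-colour and Cy3-labelled. Per the file headers, the authors deposited linear fluorescence intensity per spot from Agilent Feature Extraction 11.5.1.1, after background subtraction and detrending (per the submitters' processing notes, version 9.1), with yes or no marks of another unit for background, saturation and non-uniformity. The deposited value tables hold log2 values with a 75th percentile of 0 and medians of -3.77 to -3.05 per array, in which each KD after column matched the other replicate's scanner file (correlation 0.975 with its own), and served as an alternative only.

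Here, log2 intensity minus the array's 75th percentile was averaged over the spots of a probe, marked spots left out. Probes were named from accessions through RefSeq (48.1% and 59.7% of probes of the 4-array and 8-array slides). A probe was kept if both arrays of some group were above background, and a gene took its kept probe with the highest mean level. Groups came from the labels. All groups of a slide entered a single limma 3.58.1 fit in R 4.3.3 (lmFit, eBayes, two-sided), with Benjamini-Hochberg adjustment over all genes and 0.05 as threshold. A gene with 1 array per group on the 4-array slide has no replicate spread, and its SE and p come from limma's prior over the other genes. Differences are the first group minus the second, and errors are SE. The code was tested on simulated data. Of each pathway list, all called genes were named, otherwise the 2 highest and 2 lowest in TG after against WT after. The genes most like Cd69 were the 5 with the highest r. Members, lists and the rules for naming genes were chosen with earlier results of these data known. With 2 arrays per group, the number of arrays limits the precision.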

Additional observations from a re-analysis of the deposited data

How the results depend on the processing

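Of 167 alternative values of the main results, most of them counts, 138 stayed within 1.5 times the main count or kept their call. Most of the 138 are counts of 0 that stayed 0 in the comparisons before tMCAO. Their share therefore does not measure how stable the calls after tMCAO are. Also among the 138, the members called in KD after against KD before were 2 and not 3 with normexp, no filter and the trend, where Cd3e lost its call. The counts below are genes called by limma. For TG after against WT after they were 515 with the settings used above, 895 with marked spots kept, 341 with quantile normalization, 0 with no filter on dim probes (4285 at an unadjusted p under 0.05), 290 with a filter on the share of all arrays above background, 940 with every probe as its own row, 856 with a mean-variance trend, 777 from the authors' value table, and 40 to 1233 when each array was left out. Cd69 was 3.99 with no filter, no longer called. Members called were 0 with no filter, 2 with the trend and 1 to 4 with an array left out, both counting Cd3g, which had 1 array per group. For KD after against KD before, 4480 genes became 7398 with normexp, 2121 with no filter and 2339 with only the 2 groups in the fit, and 827 to 3807 with an array left out, when 0 to 2 members were called. Before tMCAO, quantile normalization called 6 genes in TG against WT, 1 in KD against WT and 6 in TG against KD, and leaving out an array called 0 to 2 in TG against WT and 0 to 3 in KD against WT, never a member. The cause was not tested where a call changed.

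The replicate number as a block called 546 genes in TG after against WT after and 4695 in KD after against KD before, with the member calls held. Cd69 was 3.99 (adjusted p = 0.00669). The block lost Pou2af1, Cd274, Tcf7, Thy1 and Cd6 and added Ctla4 and Gzmb. Deviations of same-numbered arrays correlated at 0.0353 to 0.173 over the 5 comparisons, and the labels do not say that numbers pair samples.

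Signs turned, without a call, as follows. With normexp these were S1pr4 (-0.35) and Spns2 (0.0023) in TG after against WT after, Cd3e in TG before against WT before (0.12), Cd3d (-0.035) and Cd3e (-0.055) in KD before against WT before, Cd3e in TG before against KD before (0.18) and Cd3d in KD after against KD before (0.19). Il2rb in TG after against WT after was 0.68 with marked spots kept and 0.69 in the value table, where Cd3e in KD before against WT before was -0.00157. Cd8a in TG before against KD before was -0.48 with quantile normalization. With each array left out in turn, ranges crossed 0 as follows. In TG after against WT after they were Tnfrsf4 -0.702 to 0.0296, Klrd1 -0.85 to 0.54, Cd4 -0.15 to 0.59, Cd8a -0.30 to 0.58 and Clec2e -0.59 to 0.047. In TG before against WT before they were Cd3g -0.85 to 1.44, Cd3d -0.18 to 1.29 and Cd79b -0.60 to 0.0072. In KD before against WT before they were Cd3d -0.69 to 0.78, Cd3e -0.19 to 0.20, Cd3g -0.39 to 1.89, Cd79b -0.52 to 0.0899 and Cd4 -0.0202 to 0.40. In TG before against KD before they were Cd8a -0.66 to 0.97 and Cd79b -0.29 to 0.12. In KD after against KD before they were Cd3d -0.55 to 0.47 and Cd8a -0.41 to 1.47.

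Normexp could use only the median spot signal, an alternative chosen after seeing the data, and was not run on the mean signal. The slide column as a block could be fitted only for KD before against WT before and called 0 genes. Cd69 has no main value on the 8-array slide. Signal near background limits Cd69, Cd79a and Ms4a1 there.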
